A study of Mus musculus with 8 samples.

Results

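The mRNA of NF-kB subunits and their inhibitors was followed in mouse sciatic nerves at postnatal day 7 (P7). The genes are those of the 5 NF-kB subunits (*Nfkb1*, *Nfkb2*, *Rel*, *Rela* and *Relb*), 3 cytoplasmic IkB inhibitors (*Nfkbia*, *Nfkbib* and *Nfkbie*), the deubiquitinase A20 (*Tnfaip3*) and the F-box protein beta-TrCP1 (*Btrc*). They were chosen by gene symbol as 10 of the 53090 genes in the deposited tables, and all 10 passed the filter on low counts that left 17090 genes. Nerves came from 4 *Nae1* cKO mice, which carry a Cre transgene and floxed *Nae1* on both alleles, and from 4 mice labelled WT. Such controls are Cre-negative littermates in the study's methods, and they carry floxed *Nae1* too, on a single allele or on both. The transgene directs Cre to Schwann cells, where recombination removes exon 4 of *Nae1*, so other cell types of the nerve keep the gene. No agent was given. Total RNA of whole nerves was sequenced from stranded libraries after removal of ribosomal RNA. The labels do not say whether the 4 nerves of a group are separate litters, so p values measure the spread between these nerves. The nerves are named by the letter and number in their labels (WT K1, L3, L4 and L9; *Nae1* cKO K2, L1, L5 and L8), and the meaning of the letters is not stated.

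NF-kB proteins bind DNA as dimers. In resting cells IkB proteins hold them in the cytoplasm. Signals from cytokine and Toll-like receptors activate the IKK complex, which phosphorylates IkB, and the phosphorylated IkB is then recognised by beta-TrCP. This F-box protein is the substrate receptor of a cullin 1 ubiquitin ligase, which is active only when NEDD8 is attached to the cullin, and the same ligase takes part in the processing of p100, the *Nfkb2* product. NAE1 is a subunit of the enzyme that activates NEDD8, so IkB is a textbook example of a protein whose destruction needs neddylation. Several genes of the pathway are themselves NF-kB targets: newly made IkB alpha (*Nfkbia*) and A20 (*Tnfaip3*) switch the response off, and *Nfkb2*, *Rel* and *Relb* are induced in many cells. In nerves, NF-kB has been studied in Schwann cells, endothelium and macrophages. The counts measure mRNA only, not protein, its location or its modification.

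RefSeq promoter windows (GRCm38.p6, 250 bases before to 50 bases after the start site) were at hand for 7 of the 10 genes. Both strands were searched for the kappaB consensus, a 10-base motif that runs from a G-rich to a C-rich end. It was found in 5 of the 7 genes, *Tnfaip3*, *Rel*, *Nfkbia*, *Nfkbie* and *Nfkb2*, and not in *Rela* or *Nfkbib*. Of the 27025 genes with a window in the table, 5.14% had it. By window, it was in 7 of the 10 of these genes and in 4.51% of all 32851. The 30-base stretches around these matches are shown because kappaB sites are the route by which the pathway is known to feed back on its own genes. They are given 5′ to 3′ along the gene's own strand, with the match in capitals. In *Rel* and in the first *Nfkb2* stretch, matches on both strands overlap and together cover 11 bases.
Tnfaip3, chr10:19015516-19015545, minus strand: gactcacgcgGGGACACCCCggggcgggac
Tnfaip3, chr10:19015403-19015432, minus strand: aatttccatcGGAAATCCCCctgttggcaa
Rel, chr11:23771041-23771070, minus strand: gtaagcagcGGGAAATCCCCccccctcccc
Nfkbia, chr12:55492657-55492686, minus strand: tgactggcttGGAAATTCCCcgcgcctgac
Nfkbie, chr17:45555584-45555613, plus strand: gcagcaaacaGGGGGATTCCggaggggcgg
Nfkb2, chr19:46304689-46304718, plus strand: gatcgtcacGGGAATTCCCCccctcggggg
Nfkb2, chr19:46304716-46304745, plus strand: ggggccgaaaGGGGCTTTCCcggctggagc
Nfkb2, chr19:46305449-46305478, plus strand: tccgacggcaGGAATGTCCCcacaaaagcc
Nfkb2, chr19:46305695-46305724, plus strand: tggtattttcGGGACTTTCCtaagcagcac
The match began 125 and 12 bases before the start site in *Tnfaip3*, 92 bases before it in *Rel*, 29 in *Nfkbia* and 106 in *Nfkbie*. In *Nfkb2* the first pair lay 39 and 11 bases before one start site. The second pair lay 236 bases before and 10 bases after another. A match is a run of letters and was not tested as a binding site. Of these 5 genes, *Tnfaip3* and *Nfkb2* were among those that fell in *Nae1* cKO nerves, and *Rel*, *Nfkbia* and *Nfkbie* were not.

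The targeted gene was measured first. *Nae1* (ENSMUSG00000031878.18, chr8:104511028-104534637) was at 89.8, 81.3, 77.7 and 82.7 CPM in WT nerves K1, L3, L4 and L9, where CPM are counts scaled to 1000000 per library with TMM factors. It was at 57.1, 57.2, 48.9 and 43.8 CPM in *Nae1* cKO nerves K2, L1, L5 and L8. The groups did not overlap (p = 0.0286 by a two-sided exact permutation test, which with 4 nerves a group cannot give less). This is a fall of 0.68 on the log2 scale (SE 0.097; edgeR quasi-likelihood test, adjusted p = 0.000277). Depth was 12962798 to 14766770 expected counts per nerve. The noncoding 7SK RNA took 4.70% of the counts of nerve K2 and 1.94% to 2.66% of those of the other 7 nerves. Summed over 9 skeletal muscle markers, among which *Ttn* was the most abundant, nerves K1 and L4 held 1270.0 and 2084 CPM, against 62.4 to 353 CPM in the other 6.

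Of the 10 genes, 3 fell in *Nae1* cKO nerves (*Tnfaip3*, *Nfkb2* and *Relb*) and none rose at an adjusted p under 0.05 over all genes tested. Among all 17090 genes, 12.3% fell and 14.1% rose by this criterion. At an unadjusted p under 0.05 the count was 5 lower and 0 higher, against 17.9% and 19.4% of all genes. DESeq2 and limma-voom each called 3 members lower and 0 higher. Over all genes DESeq2 called 2294 lower and 2442 higher, and limma-voom 2080 lower and 2368 higher. No member changed by over 2-fold, which 6.75% of all genes did with an adjusted p under 0.05. In 3 of the 10 genes every *Nae1* cKO nerve lay below every WT nerve, as in 13.7% of all genes, and in none did every *Nae1* cKO nerve lie above, as in 14.9%. The median log2 fold change was −0.17 over the 10 genes and 0.01 over all genes tested. Scaling by library totals in place of TMM moved the median of all genes up by 0.16, and under it *Tnfaip3* alone was called lower (log2 fold change −0.48, edgeR adjusted p = 0.0196) and *Rel* was called higher (0.39, adjusted p = 0.0420). The calls of *Nfkb2* (−0.32, edgeR adjusted p = 0.103) and *Relb* (−0.31, adjusted p = 0.155) were lost under library totals. The fall in *Tnfaip3* was smaller there but kept its call. With TMM, the sizes of all these falls are relative to the bulk of genes in the same nerve.

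**Figure D1:**
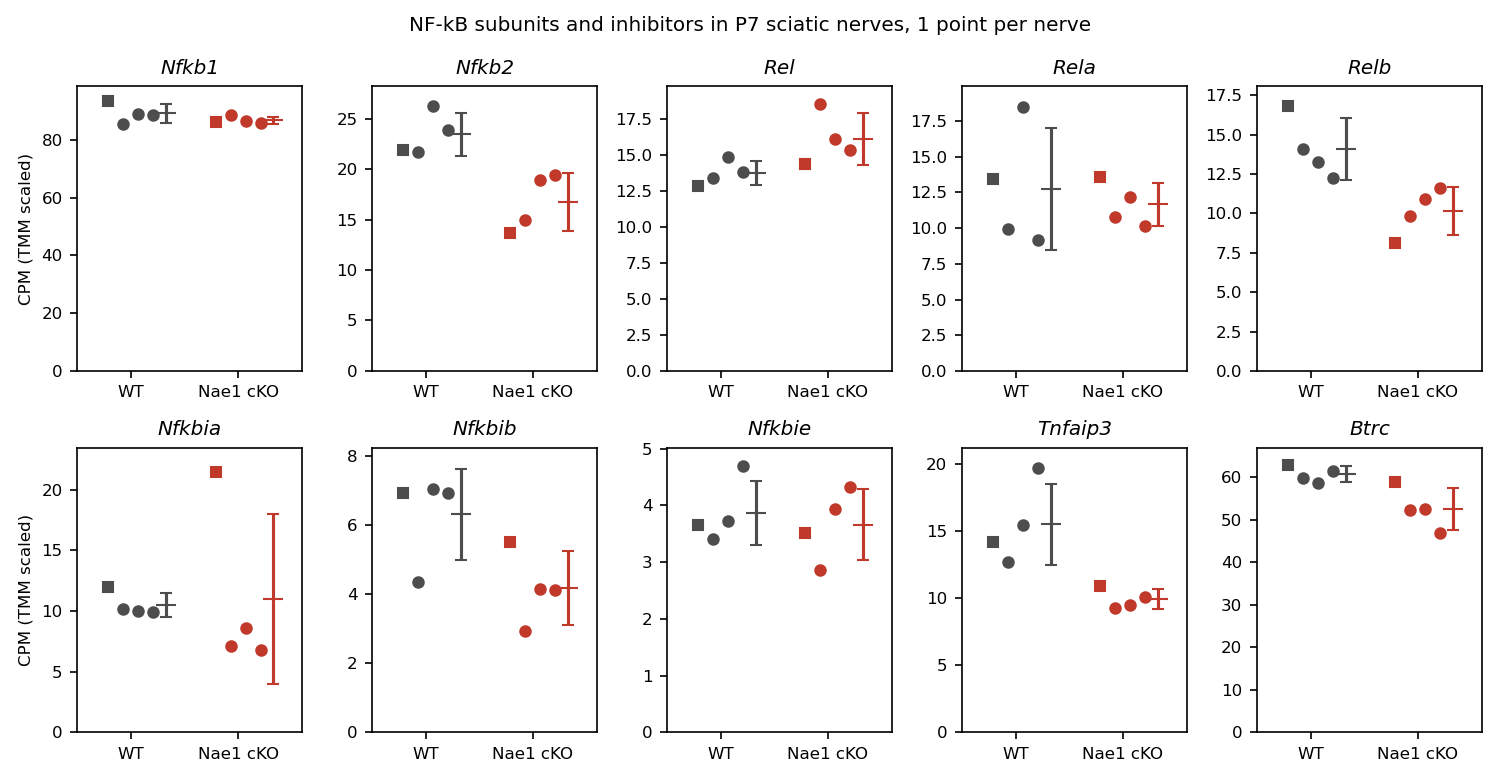
Level of each of the 10 genes in CPM after TMM scaling (y axis, from 0) in 4 WT nerves (grey) and 4 *Nae1* cKO nerves (red), 1 point per nerve in the order K1, L3, L4, L9 and K2, L1, L5, L8. Squares are the nerves with the letter K, circles those with L, and bars give mean ± SD; *Tnfaip3*, *Nfkb2* and *Relb* do not overlap between the groups, and nerve K2 stands at 21.5 CPM in *Nfkbia*.

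Among the subunits, *Nfkb2* (ENSMUSG00000025225, chr19:46304320-46312385) encodes p100, which is processed to p52 in the noncanonical pathway. It was at 21.9, 21.7, 26.3 and 23.8 CPM in the WT nerves and at 13.7, 15.0, 18.9 and 19.4 CPM in the *Nae1* cKO nerves. The highest *Nae1* cKO nerve lay below the lowest WT nerve. Means were 23.4 ± 2.11 CPM in WT and 16.7 ± 2.84 CPM in *Nae1* cKO nerves (SD, n = 4). On the log2 scale the difference was −0.49 (95% confidence interval −0.77 to −0.20, edgeR adjusted p = 0.0151). The call was kept when any 1 nerve was left out (adjusted p up to 0.0492). It was lost without K1 and L4, the nerves rich in muscle mRNA (−0.45, edgeR adjusted p = 0.11), a fit with fewer nerves. *Nfkb2* shares 531 exonic bases with a noncoding RNA and 299 with *Psd*, both on the opposite strand. Its counts could therefore hold reads of those transcripts.

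*Relb* (chr7:19606217-19629438) encodes RelB, the usual partner of p52. It was at 16.8, 14.1, 13.3 and 12.2 CPM in the WT nerves and at 8.13, 9.82, 10.9 and 11.6 CPM in the *Nae1* cKO nerves. The groups were separated by a narrow gap, with a log2 fold change of −0.48 (95% confidence interval −0.79 to −0.16, edgeR adjusted p = 0.0290). The call was lost without K1 (−0.38, adjusted p = 0.0963), without L3 (−0.48, adjusted p = 0.0554) or without L1 (−0.46, adjusted p = 0.0685), and without both K1 and L4 (−0.38, adjusted p = 0.199). Within the 6 nerves with the letter L it was −0.30 (edgeR adjusted p = 0.121), and the letter K has a single nerve in each group.

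*Nfkb1* (chr3:135584655-135691547) encodes p105, the precursor of p50. It was at 93.5, 85.4, 88.9 and 88.7 CPM in the WT nerves and at 86.2, 88.6, 86.5 and 85.7 CPM in the *Nae1* cKO nerves. The *Nae1* cKO range lay within the WT range. Its log2 fold change was −0.04, with a 95% confidence interval of −0.18 to 0.10 (edgeR adjusted p = 0.709).

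*Rela* (chr19:5637483-5648130) encodes p65, the transactivating partner of p50 in the canonical pathway. It was at 13.4, 9.92, 18.5 and 9.14 CPM in the WT nerves and at 13.6, 10.8, 12.2 and 10.2 CPM in the *Nae1* cKO nerves. The WT spread was set by L4 and K1, which are also the nerves with the most muscle mRNA, and the part of muscle mRNA in this spread was not tested. Over all nerves the difference was −0.13 on the log2 scale (95% confidence interval −0.58 to 0.32, edgeR adjusted p = 0.695) and 0.29 without K1 and L4 (adjusted p = 0.320).

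*Rel* (chr11:23736847-23770970) encodes c-Rel, best known from lymphocytes. It was at 12.9, 13.4, 14.8 and 13.8 CPM in the WT nerves and at 14.3, 18.5, 16.1 and 15.3 CPM in the *Nae1* cKO nerves. Only K2 lay within the WT range. Its log2 fold change of 0.23 did not pass (95% confidence interval −0.02 to 0.47, edgeR adjusted p = 0.165). Lymphocyte markers were close to 0 in every nerve: the sum of 9 of them was 0.869 to 1.39 CPM in WT and 1.94 to 2.72 CPM in *Nae1* cKO nerves, with *Ncr1* at 0 throughout. Of the 2 lymphocyte markers that could be tested, *Klrb1c* rose (log2 fold change 2.29, edgeR adjusted p = 0.00176). *Klrb1c* shares 413 exonic bases with *Gm44511* on the same strand, so its low counts could hold reads of both.

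**Figure D2:**
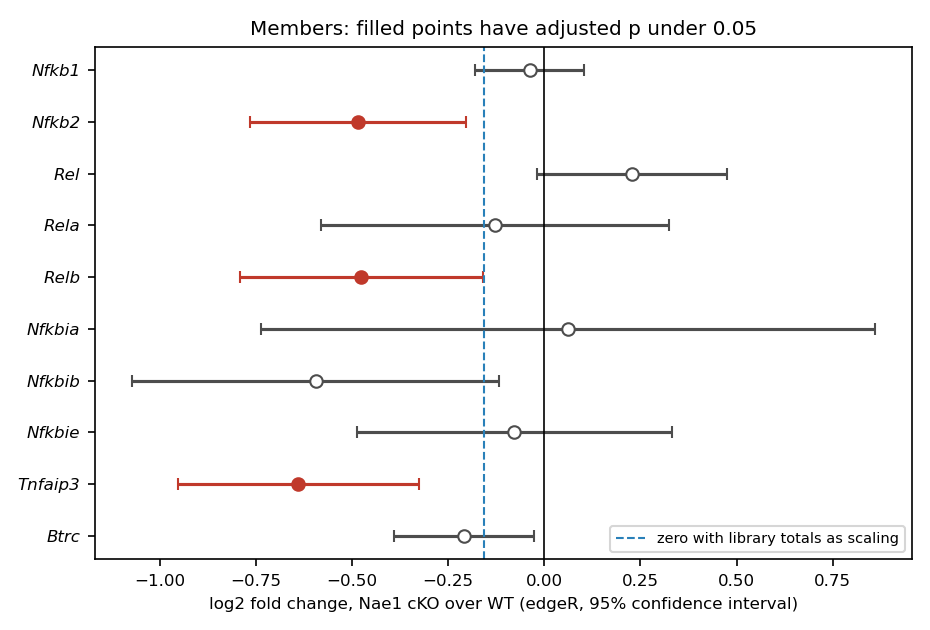
Log2 fold change of each gene, *Nae1* cKO over WT, from edgeR's quasi-likelihood test with its 95% confidence interval (x axis); filled red points have an adjusted p under 0.05. The dashed line marks where 0 would lie with library totals as the scaling; *Tnfaip3*, at −0.64, has the only called interval that clears it by more than a small margin.

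The make-up of the subunit mRNAs was also compared within each nerve, per length, since the share of one subunit in the summed TPM of all 5 does not depend on the scaling between nerves. TPM are the deposited values of transcript abundance, which correct for gene length. *Nfkb1* held 57.5% to 63.4% of the sum in WT nerves and 64.1% to 67.5% in *Nae1* cKO nerves. *Rel* held 2.94% to 3.60% and 4.00% to 5.06%. *Relb* held 10.6% to 13.5% and 8.20% to 10.5%. These 3 ranges did not overlap between the groups, that of *Relb* by a narrow gap (10.61% in WT nerve L4 and 10.54% in *Nae1* cKO nerve L8). *Nfkb2* went from 12.5% to 15.7% in WT to 9.54% to 12.8% in *Nae1* cKO nerves, with a small overlap, and the *Rela* ranges of 6.78% to 12.6% and 7.67% to 10.7% overlapped throughout. Shares are parts of one sum, so a lower share of one subunit raises those of the others. The *Nfkb1* share was higher although *Nfkb1* itself had a log2 fold change of −0.04 in CPM. How often such gaps arise in other sets of genes was not examined. The shares were looked at after the single genes and were not tested.

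**Figure D3:**
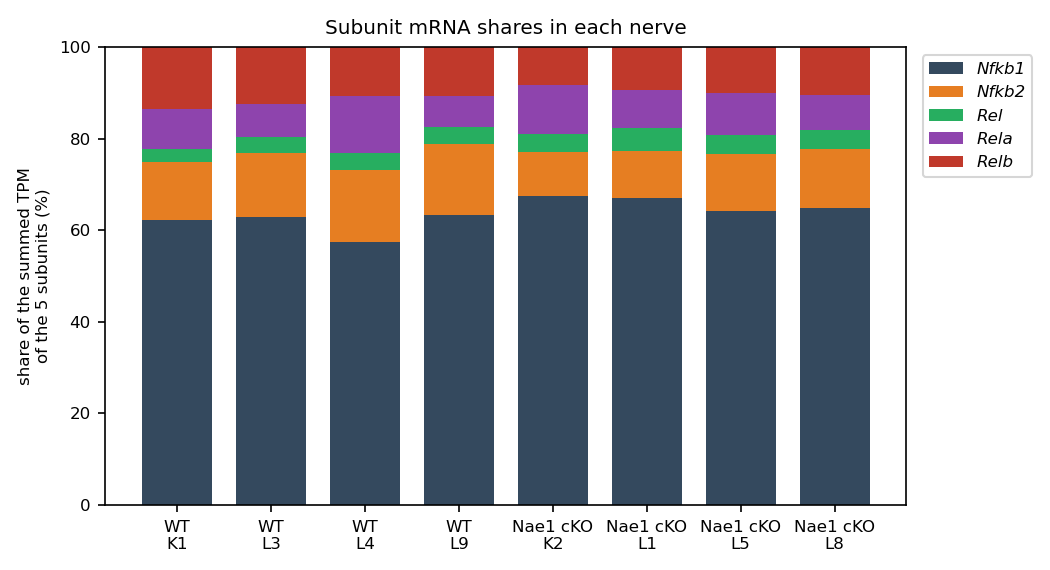
Share of each subunit in the summed TPM of the 5 subunits (y axis, percent), 1 bar per nerve. *Nfkb1* made up 57.5% to 67.5% of the sum in every nerve, and the *Rel* band was wider in the 4 *Nae1* cKO nerves (4.00% to 5.06%) than in the 4 WT nerves (2.94% to 3.60%).

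*Tnfaip3* (chr10:19000910-19015657) encodes A20, a ubiquitin-editing enzyme that ends NF-kB signalling. It had the largest change of the 10 genes in the edgeR fit over all nerves, whereas on TPM and FPKM that of *Nfkbib* was larger. It was at 14.2, 12.7, 15.5 and 19.7 CPM in the WT nerves and at 10.9, 9.27, 9.52 and 10.1 CPM in the *Nae1* cKO nerves, so that all 4 *Nae1* cKO nerves lay close together below the lowest WT nerve. The mean fell from 15.5 ± 3.02 to 9.95 ± 0.724 CPM (SD, n = 4). This corresponds to −0.64 on the log2 scale (95% confidence interval −0.95 to −0.33, edgeR adjusted p = 0.00592), or a change of −35.8%. It was called in all 8 fits that left out 1 nerve (adjusted p up to 0.0217), without K1 and L4 (adjusted p = 0.0338) and within the letter L (adjusted p = 0.00507). On the deposited TPM and FPKM the call was lost, at −0.31 on log2(TPM + 1), −0.42 on log2(TPM + 0.1) and −0.32 on log2(FPKM + 1) (limma adjusted p = 0.439, 0.460 and 0.118). The *Tnfaip3* call was also lost on TPM scaled by the median ratio (−0.54, limma adjusted p = 0.0560). The targeted gene *Nae1* lost its call on both unscaled TPM scales too (limma adjusted p = 0.266 for both). *Nae1* kept its call on FPKM (limma adjusted p = 0.0132) and on scaled TPM (0.00247).

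Of the 3 IkB inhibitors, none was called over all nerves. *Nfkbia* (chr12:55489410-55492647), which encodes IkB alpha, was at 12.0, 10.2, 9.97 and 9.93 CPM in the WT nerves and at 21.5, 7.11, 8.63 and 6.83 CPM in the *Nae1* cKO nerves. Nerve K2 lay above all WT nerves and the other 3 *Nae1* cKO nerves lay below them. Over all nerves the log2 fold change was 0.06 (95% confidence interval −0.74 to 0.86, edgeR adjusted p = 0.922), and without K2 it was −0.49 (adjusted p = 0.0184). Within the letter L it was −0.42 (adjusted p = 0.0536). Nerve K2 is also the one with the most 7SK RNA and the highest sum of macrophage markers (576 CPM, against 475 to 500.0 CPM in the other *Nae1* cKO nerves), and the part of either in its *Nfkbia* level was not tested.

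*Nfkbib* (chr7:28758251-28767512) encodes IkB beta, which is degraded more slowly than IkB alpha and is not a typical target of NF-kB. It was at 6.94, 4.34, 7.03 and 6.91 CPM in the WT nerves and at 5.52, 2.93, 4.15 and 4.11 CPM in the *Nae1* cKO nerves. WT nerve L3 lay within the *Nae1* cKO range. Its log2 fold change of −0.59 had a 95% confidence interval of −1.07 to −0.12 and did not pass after adjustment (edgeR adjusted p = 0.0646). It passed under 6 of the 22 other settings. These were the letter as a term (−0.61, edgeR adjusted p = 0.0318), the letter L alone (−0.71, adjusted p = 0.0390), no filter on low counts (−0.60, adjusted p = 0.0445), leaving out L3 (−0.74, adjusted p = 0.0231) or K2 (−0.76, adjusted p = 0.0145), and TPM scaled by the median ratio (−0.65, limma adjusted p = 0.0362). *Nfkbie* (chr17:45555703-45563169) encodes IkB epsilon and was at 3.40 to 4.69 CPM in WT and 2.86 to 4.32 CPM in *Nae1* cKO nerves (log2 fold change −0.08, 95% confidence interval −0.49 to 0.33, edgeR adjusted p = 0.802). It had 41 to 62 counts per nerve, which limits its precision.

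*Btrc* (chr19:45363734-45530013) encodes the substrate receptor that brings IkB to the ligase. It was at 63.0, 59.9, 58.7 and 61.4 CPM in the WT nerves and at 58.9, 52.2, 52.4 and 46.8 CPM in the *Nae1* cKO nerves. K2 alone reached the WT range. A log2 fold change of −0.21 did not pass (95% confidence interval −0.39 to −0.03, edgeR adjusted p = 0.0865), and without K2 it was −0.27 (adjusted p = 0.0151). It also passed with the letter as a term (−0.21, edgeR adjusted p = 0.0475) and within the letter L (−0.26, adjusted p = 0.0379).

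Per length, the order of the 10 genes in WT nerves was led by *Nfkb1* at 22.6 ± 1.24 TPM and *Btrc* at 11.3 ± 1.06 TPM (SD, n = 4). Their ranges overlapped neither with each other nor with the rest, in either genotype. *Nfkb2* (5.34 ± 0.952 TPM), *Nfkbia* (5.19 ± 0.498 TPM) and *Relb* (4.32 ± 0.256 TPM) followed, with overlapping ranges from one to the next. *Nfkbib* (3.38 ± 0.861 TPM), *Rela* (3.30 ± 1.26 TPM) and *Tnfaip3* (2.86 ± 0.813 TPM) had lower means, each overlapping its neighbour. *Relb* and *Nfkbib* also overlapped in both genotypes. *Rel* (1.25 ± 0.193 TPM) and *Nfkbie* (1.13 ± 0.250 TPM) were lowest. This order of means was not held in every nerve: *Nfkb2* exceeded *Nfkbia* in 4 of the 8 nerves, and *Nfkbib* exceeded *Rela* in 2. *Tnfaip3* and *Rel* overlapped in *Nae1* cKO nerves but not in WT nerves. p105 mRNA was thus more abundant per length than p65 mRNA in each of the 8 nerves. In two-sided exact permutation tests of the deposited TPM between genotypes, none of the 10 genes reached p under 0.05. The smallest p by this exact permutation test was 0.0857, for *Nfkbib*. The targeted gene *Nae1* did not reach it either (two-sided exact permutation test of TPM, p = 0.114). These tests thus missed the fall of *Nae1* seen in CPM, and they cannot show that the 10 genes were unchanged. TPM run on different levels in different nerves, since the median ratio of a gene to its median nerve was 0.71 in K2 and 1.35 in L1.

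RSEM also gives each gene a length, the mean over its transcripts weighted by their abundance, which shifts when a gene uses longer or shorter transcripts. This length varied between nerves in 7 of the 10 genes. None was called between the genotypes, as was the case for all 11936 genes with a varying length (0%, limma with adjustment over them). At an unadjusted p under 0.05 there were 808 genes and none of the 7. *Relb* came nearest, with 2291 ± 51.4 bases in WT and 2244 ± 53.7 bases in *Nae1* cKO nerves (SD, n = 4).

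The other genes of the pathway were taken from 9 lists with 94 genes, of which 72 were tested. In *Nae1* cKO nerves 21 of these 72 rose and 6 fell, with a median log2 fold change of 0.20. The shares to read these and the following counts against are 14.1% higher and 12.3% lower over all genes tested. Without K1 and L4, 14 rose and 1 fell, and the shares above do not apply to that fit. In it 1273 of 17749 genes rose and 1129 fell.

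**Figure D4:**
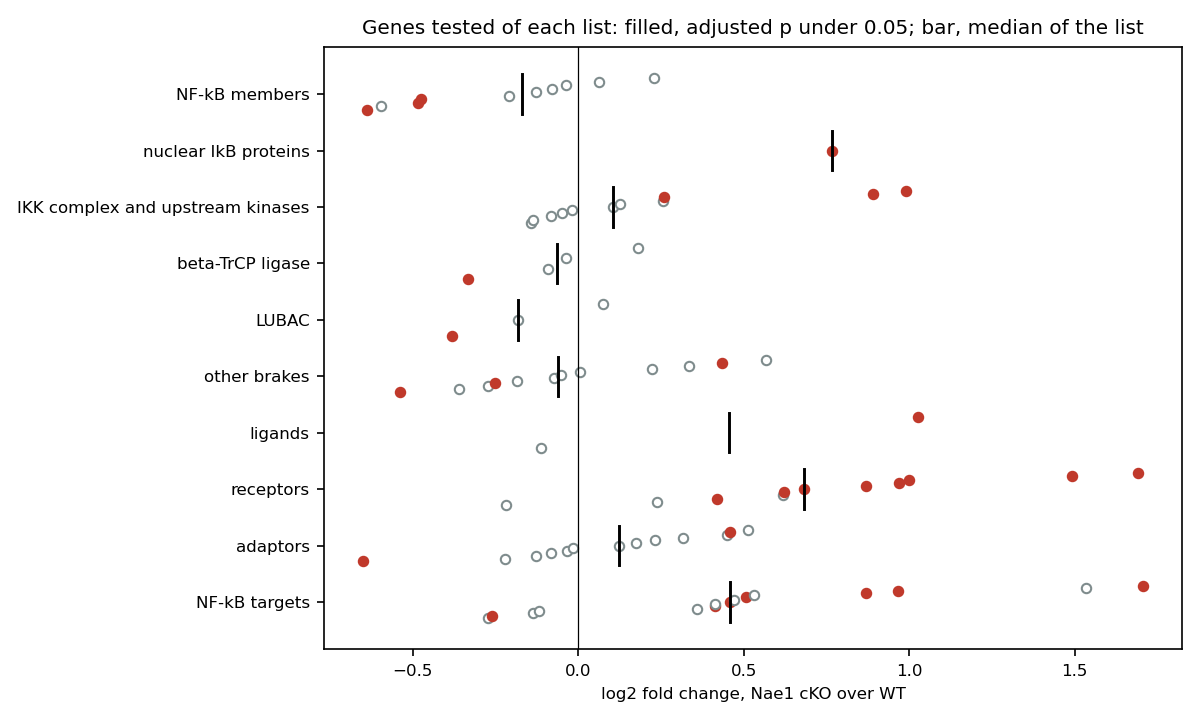
Log2 fold change, *Nae1* cKO over WT (x axis), of the genes tested in each list; filled red points have an adjusted p under 0.05 and bars mark list medians. The median of the receptors lies at 0.68 and that of the 10 subunits and inhibitors at −0.17.

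Of 11 receptors tested, 8 rose and none fell, with a median log2 fold change of 0.68. *Tlr4*, the receptor for bacterial lipopolysaccharide, was at 8.77, 10.4, 8.18 and 7.71 CPM in the WT nerves and at 41.6, 26.6, 23.0 and 22.3 CPM in the *Nae1* cKO nerves (log2 fold change 1.69, SE 0.20, edgeR adjusted p = 9.78e-05). *Tnfrsf12a*, the TWEAK receptor Fn14, went from 7.58 ± 0.766 to 21.3 ± 2.90 CPM (SD, n = 4; log2 fold change 1.49, adjusted p = 8.00e-06). *Il1rap*, the shared chain of the IL-1 and IL-33 receptors, went from 136 ± 12.5 to 266 ± 30.5 CPM (0.97, adjusted p = 1.78e-05), and *Tnfrsf11a*, which encodes RANK, from 5.59 ± 1.07 to 10.2 ± 0.987 CPM (0.87, adjusted p = 0.00155). *Tnfrsf1b* rose as well (0.68, adjusted p = 0.0164), and its call was lost without L8 (adjusted p = 0.0557).

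Of 10 ligands, 2 had enough counts to be tested and 6 had at most 10 counts in any nerve. *Il33*, an alarmin of the IL-1 family, was at 20.1, 20.8, 16.6 and 16.2 CPM in the WT nerves and at 36.9, 39.7, 37.5 and 35.8 CPM in the *Nae1* cKO nerves. The groups were far apart (log2 fold change 1.03, SE 0.10, edgeR adjusted p = 2.05e-05). *Tnfsf12*, the ligand of Fn14, which shares exons with *Tnfsfm13*, had a log2 fold change of −0.11 (adjusted p = 0.838). *Tnf* was at 0.0730 to 0.362 CPM in WT and 0.149 to 0.748 CPM in *Nae1* cKO nerves and *Il1b* at no more than 0.219 CPM in any nerve, too low to test.

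The core of the IKK complex was carried by *Chuk* (IKK alpha), *Ikbkb* (IKK beta) and *Ikbkg* (NEMO). Neither *Chuk* (log2 fold change −0.14, edgeR adjusted p = 0.201) nor *Ikbkb* (−0.08, adjusted p = 0.521) passed. *Ikbkg* was at 50.8, 50.9, 52.9 and 54.5 CPM in the WT nerves and at 131, 86.9, 96.1 and 102 CPM in the *Nae1* cKO nerves (log2 fold change 0.99, SE 0.11, edgeR adjusted p = 5.11e-05). This value is uncertain, because *Ikbkg* overlaps *G6pdx* on the opposite strand, with 418 shared exonic bases, and whether counting used strand is not given in the sources used here. *G6pdx* rose by a similar amount (0.92, adjusted p = 1.84e-05). Among the upstream kinases, *Map3k8* (0.89, adjusted p = 0.0258) and *Tbk1* (0.26, adjusted p = 0.0453) rose, and each call was lost when certain single nerves were left out (K1, L9, K2 or L1 for *Map3k8*, adjusted p up to 0.0661; any but L5 for *Tbk1*, up to 0.123).

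Of the ligase that *Btrc* belongs to, *Rbx1*, its RING subunit, fell from 57.4 ± 5.02 to 45.5 ± 3.31 CPM (SD, n = 4; log2 fold change −0.33, edgeR adjusted p = 0.0153), a call lost without K1 (adjusted p = 0.0542). *Cul1*, the cullin that carries NEDD8, lay higher in every *Nae1* cKO nerve (90.3 to 100.5 CPM against 81.5 to 88.4 CPM) but did not pass (0.18, adjusted p = 0.0723). *Skp1* (−0.04, adjusted p = 0.771), the adaptor, and *Fbxw11* (−0.09, adjusted p = 0.415), which encodes beta-TrCP2, did not pass either. In the linear ubiquitin ligase LUBAC, which builds the chains that recruit the IKK complex, *Rbck1* (HOIL-1) fell (−0.38, adjusted p = 0.00730), while *Rnf31* had a log2 fold change of −0.18 (adjusted p = 0.225) and *Sharpin* of 0.07 (adjusted p = 0.626).

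Of 12 other brakes tested, 1 rose and 2 fell, shares near those of all genes (14.1% and 12.3%). *Cyld*, which removes K63-linked and linear ubiquitin chains, was at 152, 146, 141 and 163 CPM in the WT nerves and at 109, 103, 103 and 99.7 CPM in the *Nae1* cKO nerves. No nerve of one group came near the other (log2 fold change −0.54, SE 0.07, edgeR adjusted p = 0.000162). *Tax1bp1*, a partner of A20, also fell (−0.25, adjusted p = 0.0234; up to 0.0716 with 1 nerve left out), and *Otulin*, which cleaves linear chains, rose (0.43, adjusted p = 0.0470; up to 0.122). Both calls were lost without L9, L5 or L8, that of *Tax1bp1* also without L1 and that of *Otulin* also without L3, L4 or K2. *Tnip2*, which binds A20, had a log2 fold change of 0.34 (adjusted p = 0.0903). Of the nuclear IkB proteins, *Nfkbiz* (IkB zeta), an inducible cofactor of p50, rose from 6.68 ± 1.53 to 11.4 ± 2.49 CPM (0.77, adjusted p = 0.0102). *Bcl3* (0.476 to 1.25 CPM over all nerves) and *Nfkbid* (0.149 to 0.767 CPM) were too low to test.

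Of the 13 adaptors, 1 rose and 1 fell. *Traf1*, an inducible adaptor of TNF receptors, fell (−0.65, edgeR adjusted p = 0.0317) and *Birc3*, which encodes cIAP2, rose (0.46, adjusted p = 0.0217). *Traf1* lost its call without L3, L4, L5 or L8 (adjusted p up to 0.102) and *Birc3* without K1, L3 or L5 (up to 0.0606). *Birc2* (−0.22, adjusted p = 0.0619) and *Tradd* (0.51, adjusted p = 0.122) did not pass. Among 24 genes known as NF-kB targets, 15 were tested, 6 rose and 1 fell, with a median of 0.46. *Ier3*, an early response gene, was at 2.34, 1.30, 1.72 and 1.27 CPM in the WT nerves and at 5.75, 4.95, 5.17 and 5.92 CPM in the *Nae1* cKO nerves. It showed the largest rise of the tested targets that passed (log2 fold change 1.71, SE 0.21, edgeR adjusted p = 0.000108). *Irf1* (0.51, adjusted p = 0.00691), *Cflar* (0.41, adjusted p = 0.00164), which encodes the caspase 8 inhibitor c-FLIP, and *Plau* (0.87, adjusted p = 0.00701), which encodes urokinase, rose too. *Sod2*, the mitochondrial superoxide dismutase, fell (−0.26, adjusted p = 0.0474) and *Csf1*, the macrophage growth factor, rose (0.46, adjusted p = 0.0435). The last 2 calls were lost without L4, L9, L1, L5 or L8 (adjusted p up to 0.135 and 0.0895), that of *Sod2* also without K1 and that of *Csf1* also without L3 or K2. *Ccl20* and *Csf2* had no count in any nerve.

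In whole nerves, fewer cells of a type and less RNA per cell cannot be told apart. Markers of some other cell types moved with the genotype, though the fibroblast and muscle sums overlapped between the groups. Of 15 macrophage markers 13 rose, and their summed level was 266 to 288 CPM in WT and 475 to 576 CPM in *Nae1* cKO nerves, with *Csf1r* and *Mrc1* the most abundant. Of 7 endothelial markers 3 fell and none rose (sum 234 to 289 CPM against 180 to 220 CPM, *Kdr* the most abundant). Of 7 fibroblast markers 4 rose (sum 15755 to 19863 CPM against 19505 to 21963 CPM, *Col3a1* the most abundant). Of 8 neutrophil and mast cell markers none passed, *Kit* was the most abundant and *Ly6g* was at 0 in all nerves. Of the 9 skeletal muscle markers 3 fell by edgeR, 9 by DESeq2 and none by limma-voom, and all 9 had an unadjusted edgeR p under 0.05. Their median log2 fold change was −2.80. The rise in receptors and targets went the way of the macrophage and fibroblast markers. The fall in *Tnfaip3*, *Nfkb2* and *Relb* went the way of the endothelial and muscle markers. The calls of *Nfkb2* and *Relb* were lost without the muscle-rich nerves K1 and L4, a fit with fewer nerves. Its log2 fold changes were −0.45 for *Nfkb2*, −0.38 for *Relb* and −0.71 for *Tnfaip3*, against −0.49, −0.48 and −0.64 over all nerves. In that fit 1273 genes rose and 1129 fell, against 2411 and 2099 over all nerves. WT nerve L9 had the lowest muscle (125 CPM) and endothelial (234 CPM) sums of the WT nerves. It also had their highest *Tnfaip3* (19.7 CPM) and their lowest *Relb* (12.2 CPM). The part of these cell types in these results was not tested.

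**Figure D5:**
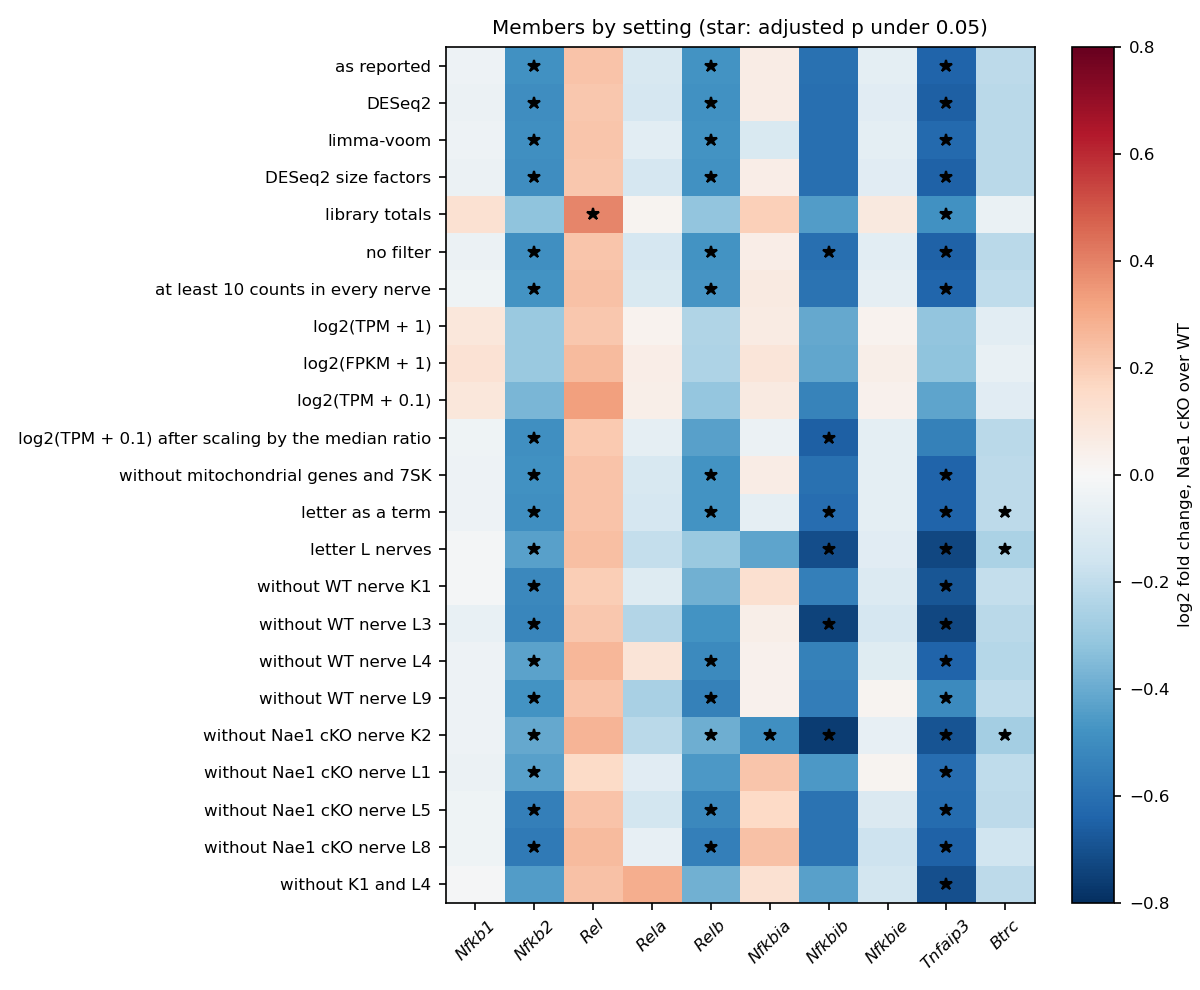
Log2 fold change (colour, *Nae1* cKO over WT) of the 10 genes as reported and under 22 other settings, with a star where the adjusted p was under 0.05. *Tnfaip3* was called lower under 18 of the 22, *Nfkb2* under 17 and *Relb* under 12, and all 3 were below 0 under every one.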

How the data were processed

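The deposited tables hold, for each of 8 nerves, RSEM gene-level values that the authors made: expected counts (estimated fragments per gene, which need not be whole), TPM and FPKM that the authors scaled to library size and gene length, and a length per gene. STAR, RSEM, FastQC 0.11.5 and GRCm38 come from the submitters' processing notes, whereas the study's methods describe TopHat on mm10 with Cuffdiff, and aligned reads were not used here. Neither the annotation release nor the strand setting is given in the sources used here.

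Expected counts were rounded, filtered by filterByExpr (17090 of 53090 genes), scaled by TMM and compared with edgeR 4.0.16's quasi-likelihood test with robust estimation, with Benjamini-Hochberg adjustment over all genes tested (R 4.3.3). The labels gave the 4 against 4 grouping. Intervals are 95% confidence intervals. The script was tested on simulated data. Lengths were compared with limma 3.58.1, and single values by exact permutation tests (SciPy 1.17.1). Coordinates came from GENCODE vM21 (52403 identifiers matched) and promoters from RefSeq. Alternatives were DESeq2 1.42.0, limma-voom, other scalings and filters, limma on TPM and FPKM (pseudocounts 1 and 0.1), the label letter, and nerves left out. Leaving out K1 and L4 together and scaling TPM by the median ratio were chosen after seeing the data.

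The 10 members, the lists and the naming rule were chosen with earlier results of these data known. Named were the members, *Nae1*, the 4 genes of smallest adjusted p in each pathway list, any past 2-fold, all nuclear IkB, beta-TrCP and LUBAC genes, the most abundant or absent markers, and genes whose call is lost when 1 nerve is left out. *Ikbkb*, *Tnf*, *Il1b*, *Ccl20*, *Csf2*, *Klrb1c* and *G6pdx* were named after their values were seen. *Nfkb2* (531 exonic bases with a noncoding RNA and 299 with *Psd*), *Nfkbib* (314 with *Ccer2*) and *Btrc* (235 with a pseudogene) overlap transcripts of the opposite strand, so their counts could hold reads from both. The list of Schwann cell markers is not reported here.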

Additional observations from a re-analysis of the deposited data

Results flagged for a closer look

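In 88 groups of 4 nerves, over the 10 members, *Nae1* and the other pathway genes named, a nerve lay far from the rest in 4, and chance alone gives about 1 in 20. *Nfkbia* reached 21.5 CPM in K2, while the other 3 *Nae1* cKO nerves lay between 6.83 and 8.63 CPM. *Nfkbia* also stood highest in the other K nerve, WT K1, at 12.0 CPM against 9.93 to 10.2 CPM. *Nfkbib* stood at 4.34 CPM in WT nerve L3, against 6.91 to 7.03 CPM. *Csf1* stood at 6.75 CPM in WT nerve L9, against 10.2 to 10.9 CPM.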

How the results depend on the processing

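With library totals, which moved the median of all genes by 0.16, the counts were 1 member higher and 1 lower, 3875 genes higher and 1255 lower in all (75.5% of calls higher, against 53.5%), and 1 pathway gene lower. On log2(TPM + 1), log2(TPM + 0.1) and log2(FPKM + 1) 0 members were called lower. All genes gave 1297, 1245 and 3359 higher and 424, 415 and 1035 lower, and pathway genes 11, 9 and 27 higher and 0, 0 and 1 lower. *Nae1* was then at −0.44 and −0.46 on the 2 TPM scales (limma adjusted p = 0.266 for both). After scaling TPM by the median ratio, 2 members (*Nfkb2* and *Nfkbib*, while *Tnfaip3* and *Relb* lost their calls) and 3 pathway genes were lower. Of all 17090 genes, 2079 were then higher and 1655 lower. With the letter as a term 5 members were lower, *Nfkbib* and *Btrc* in addition. Calls over all 17090 genes also grew there, to 2798 higher and 2458 lower. Without K1 and L4 these counts were 1 member lower, 1273 genes higher and 1129 lower, and 1 pathway gene lower, with fewer nerves compared. With 1 nerve left out, 2 to 6 members were lower (6 without K2), 17 to 20 pathway genes were higher and 3 to 8 lower (3 without L5 or L8), and 1939 to 2723 genes higher and 1644 to 2504 lower.

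Uncalled members changed sign. With library totals, log2(TPM + 1), log2(FPKM + 1) and log2(TPM + 0.1), *Nfkb1* was at 0.119, 0.0882, 0.116 and 0.0901, *Rela* at 0.0235, 0.0291, 0.0561 and 0.0452, and *Nfkbie* at 0.0778, 0.0257, 0.0444 and 0.0368. *Nfkbia* was at −0.12 with limma-voom, −0.0499 on scaled TPM, −0.0740 with the letter as a term and −0.42 within the letter L. *Rela* was at 0.29 without K1 and L4. With 1 nerve left out, *Rela* ran from −0.26 to 0.10, *Nfkbie* from −0.17 to 0.0240 and *Nfkbia* from −0.49 to 0.23. Where no construction is named, the cause was not tested. No paired analysis was possible because the groups compared share no replicate number. At this depth most ligands and chemokines could not be tested.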
